A study of Mus musculus with 2 samples.

Results

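The interferon-stimulated genes *Ifit1*, *Ifit3*, *Ifitm2*, *Ifitm3*, *Isg15*, *Irf7*, *Bst2*, *Ifi27* and *Oasl2* were followed across the cell classes of the untreated adult mouse striatum. They were matched by symbol, and all 9 were found among the 32285 genes of the count files. Single-cell RNA was measured on the 10x Genomics platform in 2 libraries, replicates 1 and 2 of 1 condition, from mice labelled as strain C57/Bl6J, aged 8 to 10 weeks, with no treatment. The protocol names C57BL/6NTac instead, the cells are labelled as enriched for glia, and the mice are known for the study as a whole, not by library. The paper's methods for single-cell sequencing name male mice of a younger age range, so the sources differ in age as well as strain. Striatum was cut out, digested with pronase and freed of debris before capture, so the mice were untreated but the cells had passed through dissociation. The paper's methods put actinomycin D in the recovery, pronase and trituration solutions, with the aim of preventing changes in transcription from stress. No interferon was given to any group, so the values are levels in cells of untreated mice. Whether dissociation or actinomycin D changed them was not tested.

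Interferons are secreted proteins that warn cells of infection. The type I interferons bind the receptor made of Ifnar1 and Ifnar2, which acts through kinases on transcription factors. These bind the interferon-stimulated response element in the promoters of many genes, a part of which also have a low level without infection. Among the genes followed here, *Irf7* encodes a transcription factor that drives interferon genes and amplifies the response. *Ifit1* encodes a protein that binds foreign RNA and blocks its translation, and *Ifit3* a protein of the same family. *Isg15* encodes a ubiquitin-like protein that is attached to other proteins, and *Oasl2* a member of the oligoadenylate synthetase family. *Ifitm2* and *Ifitm3* encode membrane proteins that hinder the entry of viruses, *Bst2* encodes tetherin, which holds budding virus at the cell surface, and *Ifi27* a small membrane protein of the mitochondria.

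In the brain, vessels are lined by endothelial cells and wrapped by mural cells, that is pericytes and smooth muscle cells. Microglia are the resident immune cells of the tissue, and macrophages lie along its borders and vessels. Astrocytes, oligodendrocytes and their precursors (OPCs) form the rest of the glia.

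On GRCm38, the build also called mm10, *Ifit1* (ENSMUSG00000034459) lies on chromosome 19 from 34640871 to 34650009 on the plus strand, and *Ifit3* (ENSMUSG00000074896) lies upstream of it from 34583531 to 34588731 on the same strand. *Ifitm2* (ENSMUSG00000060591) and *Ifitm3* (ENSMUSG00000025492) lie on the minus strand of chromosome 7, from 140954837 to 140955987 and from 141009586 to 141010770, with *Ifitm1* between them on the plus strand. *Ifitm2* overlaps *Gm45717* on its own strand. *Irf7* (ENSMUSG00000025498) lies on the same strand from 141262706 to 141266481 and overlaps *Phrf1* on the plus strand. *Isg15* (ENSMUSG00000035692) lies on chromosome 4 from 156199424 to 156200818 on the minus strand, *Bst2* (ENSMUSG00000046718) on chromosome 8 from 71534255 to 71537456 on the minus strand, *Ifi27* (ENSMUSG00000064215) on chromosome 12 from 103434211 to 103440239 on the plus strand, and *Oasl2* (ENSMUSG00000029561) on chromosome 5 from 114896936 to 114912234 on the plus strand. All 9 are protein-coding.

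The core of the interferon-stimulated response element is GAAA repeated after a gap of 2 bases. It was searched on both strands in the promoter windows of RefSeq on GRCm38.p6, which span the start of each gene in RefSeq, not the gene bounds given above. Of the 9 genes, 8 had a window, and 6 of these held the motif at least once, against 3.99% of all 27025 gene symbols with a window. The shorter form GAAANNGAA was found in the same 6 genes and in 9.76% of all symbols. The stretches around the matches are printed here because these genes are named for the response this element serves. Each runs 5′ to 3′ on the strand of its gene, and the capitals mark the matches, which read TTTC where the match is on the other strand.
Ifit1, chr19:34640775-34640823, plus strand, matches from 104 to 76 bases before the RefSeq start: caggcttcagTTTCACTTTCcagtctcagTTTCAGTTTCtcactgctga
Ifit3, chr19:34583363-34583426, plus strand, matches from 156 to 113 bases before the RefSeq start: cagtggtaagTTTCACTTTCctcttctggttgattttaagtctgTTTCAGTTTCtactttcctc
Isg15, chr4:156200865-156200906, minus strand, matches from 78 to 57 bases before the RefSeq start: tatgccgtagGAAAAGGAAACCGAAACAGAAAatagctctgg
Bst2, chr8:71537577-71537612, minus strand, matches from 130 to 115 bases before the RefSeq start: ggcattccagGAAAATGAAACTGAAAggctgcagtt
Ifitm2, chr7:140955988-140956017, minus strand, a match from 46 to 37 bases before the RefSeq start: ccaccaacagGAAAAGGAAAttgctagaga
Ifitm3, chr7:141010716-141010742, minus strand, matches from 2 to 28 bases after the RefSeq start: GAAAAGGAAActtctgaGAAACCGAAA

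*Isg15* carried 3 overlapping matches in 1 run. *Ifit1*, *Ifit3*, *Ifitm3* and *Bst2* carried 2 matches each, which overlap in *Bst2*, and *Ifitm2* carried 1. The letters were not found in the windows of *Irf7* and *Oasl2*, and *Ifi27* had no window in the table. A match is a run of letters and was not measured as a binding site here.

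Library 1 held 6978 barcodes and 44597660 unique molecular identifiers (UMIs, 1 per captured mRNA molecule), and library 2 held 5437 barcodes and 37982720 UMIs, and 9 barcodes occurred in both. The cells fell into 13 clusters, formed without the 9 genes and without the other interferon genes described below. Named from their markers, they gave 9 classes that were compared, with 6707 and 5198 cells in libraries 1 and 2, from 94 and 76 macrophage-like cells to 1527 and 1071 astrocyte-like cells. The markers of each class were highest in that class. Of the astrocyte-like cells, 1895 lay in a cluster with medians of 1381 UMIs and 10.5% mitochondrial UMIs, with *Sst* among its leading genes. At a finer clustering resolution of 0.32 the astrocyte-like class held 1206 and 975 cells. The neuron-like class then held 508 and 267 cells, instead of 192 and 171. With only cells under 20% mitochondrial UMIs clustered, astrocyte-like cells numbered 676 and 637 and neuron-like cells 1138 and 395. With at least 500 detected genes per cell, oligodendrocyte-like cells numbered 610 and 829 instead of 1193 and 1179. A cluster of 928 cells then got no name. These alternatives thus also changed which cells the classes held. Of the oligodendrocyte-like cells, 691 lay in a cluster with a median of 23.0% mitochondrial UMIs that raised 4 of 8 markers. The class also held 147 and 129 cells that at resolution 0.32 formed a cluster without a name, with *Bmp4* and *Gpr17* among its leading genes. The median depth ran from 1615 and 2402 UMIs in astrocyte-like cells to 11496 and 12140 in oligodendrocyte-like cells. The macrophage-like class also raised 6 of 6 lymphocyte markers and 3 of 5 granulocyte markers, the mural-like class 4 of 5 fibroblast markers and the neuroblast-like class, with *Top2a* and *Mki67* of dividing cells among its leading genes, 6 of 6 progenitor markers. The levels below are in CPM, the UMIs of a gene scaled to the same total of UMIs in every class and library, with exact Poisson 95% intervals that cover counting error only. The tests are edgeR's quasi-likelihood test on counts summed per library and class, with the library as a block. The fold changes also use scaling factors per class and library (TMM factors), which the levels in CPM leave out. A fold change can thus differ from the ratio of the levels printed, in sign too. The fold changes printed include a prior count of 2, while the SEs belong to the fold changes without it. A printed fold change over its SE is thus not the test statistic. With the block, the p-values rest on how far the classes varied from library to library, pooled over the 9 classes, not on the overall difference between libraries. Since the labels do not say whether the libraries came from separate mice, this spread may be technical. The paper's statistics section calls all its replicates biological, without naming these libraries.

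*Irf7* was highest in endothelial-like cells, at 118 CPM (387 UMIs) in library 1 and 82.2 CPM (203 UMIs) in library 2. It stood at 51.7 and 27.2 CPM in macrophage-like cells and at 35.6 and 12.9 CPM in mural-like cells, and the libraries of these classes overlapped. Microglia-like cells had 5.48 and 4.02 CPM. In the 5 other classes *Irf7* lay between 0 and 3.17 CPM, with no UMI in OPC-like cells of library 1 or neuron-like cells of library 2. Endothelial-like cells thus had the factor at a level above every other class in both libraries, and their 2 libraries differed beyond counting error.

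*Ifit1* was measured at 151 CPM (138–165) and 151 CPM (137–168) in endothelial-like cells of libraries 1 and 2, a mean of 151 ± 0.177 (SD, n = 2). Mural-like cells followed at 35.6 and 36 CPM and overlapped with macrophage-like cells at 11.7 and 38.6 CPM, the latter from 17 UMIs that all lay in 1 cell. OPC-like cells had 6.24 and 3.11 CPM, and in microglia-, astrocyte-, oligodendrocyte-, neuron- and neuroblast-like cells *Ifit1* lay between 0 and 3.33 CPM. Endothelial-like cells held 81.1% and 72.3% of all *Ifit1* UMIs of the named classes. *Ifit3*, of the same family, was less restricted, with 80.6 and 69.7 CPM in endothelial-like and 47.2 and 28.9 CPM in mural-like cells. Macrophage-like cells had 35.0 and 118 CPM of *Ifit3*, where that cell held 48 of the 52 UMIs of library 2. *Ifit3* was also counted at 26.0 and 11.1 CPM in OPC-like, 11.4 and 14.3 CPM in astrocyte-like and 10.5 and 6.40 CPM in microglia-like cells. It lay at 3.92 CPM or less elsewhere. *Ifit3* shares 14.9% of the 50-base windows in its last 500 bases with *Ifit3b*. Reads within these windows cannot be told apart by sequence, and how they were counted was not examined. *Ifit3b* had 24.0 and 17.8 CPM in endothelial-like, 16.1 and 8.45 CPM in OPC-like and 8.30 and 9.27 CPM in astrocyte-like cells. It had 14.3 and 5.15 CPM in mural-like and 11.7 and 25.0 CPM in macrophage-like cells. In the latter the same single cell held 10 of the 11 *Ifit3b* UMIs of library 2.

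*Isg15* stood at 285 CPM (267–304) and 269 CPM in endothelial-like cells, a mean of 277 ± 11.7 (SD, n = 2). Mural-like cells had 92.7 and 91.4 CPM, and macrophage-like cells 41.7 and 122 CPM, which overlap, though 43 of the 54 UMIs behind the latter lay in the same cell. Microglia-like cells were next at 9.42 and 10.0 CPM, and the remaining classes lay between 0.53 and 4.66 CPM. *Oasl2* had the same leading class, with 81.6 and 85.9 CPM in endothelial-like cells. It stood at 50.01 and 18.1 CPM in macrophage-like and 29.6 and 23.8 CPM in mural-like cells, while the 6 other classes reached 4.22 CPM at most.

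Of the membrane proteins, *Ifitm3* stood at 1378 and 1476 CPM in endothelial-like cells. Mural-like cells had 846 and 802 CPM, macrophage-like cells 757 and 690 CPM, and the libraries of these 3 classes did not overlap. In neuroblast-, astrocyte-, neuron- and microglia-like cells *Ifitm3* lay between 12.1 and 55.3 CPM, and in OPC- and oligodendrocyte-like cells between 4.0 and 9.88 CPM. *Ifitm2* had another order, with 657 and 492 CPM in macrophage-like and 596 and 525 CPM in mural-like cells, which overlap, and 387 and 454 CPM in endothelial-like cells. It was at 30.1 CPM or less in every other class. Their ends are alike: 41.9% of the windows in the last 500 bases of *Ifitm2* occur in other genes, *Ifitm3* among them. For *Ifitm3* 13.97% do. How reads within such windows were counted was not examined, so the levels of both are uncertain. *Ifitm1*, a further gene of the family, was at 540 and 444 CPM in mural-like and at 9.43 and 17.4 CPM in endothelial-like cells.

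*Bst2* was highest in macrophage-like cells, at 510 and 515 CPM, followed without overlap by endothelial-like cells at 330 and 306 CPM, mural-like cells at 170 and 151 CPM and microglia-like cells at 125 and 131 CPM. In the 5 other classes it lay between 1.78 and 9.83 CPM. The classes thus fell into 4 at 125 CPM or more and 5 at 9.83 CPM or less. *Ifi27* was found in every class. It stood at 328 and 327 CPM in endothelial-like, 312 and 277 CPM in OPC-like, 242 and 201 CPM in mural-like and 225 and 157 CPM in macrophage-like cells. Microglia-like cells had 148 and 148 CPM, oligodendrocyte-like cells 143 and 147 CPM and astrocyte-like cells 125 and 107 CPM, and neuroblast- and neuron-like cells were lowest at 67.4 and 52.3 CPM and at 27.0 and 21.4 CPM. Only 16.6% and 14.7% of the *Ifi27* UMIs of the named classes came from endothelial-like cells. Its relative *Ifi27l2a* was instead at 573 and 612 CPM in macrophage-like cells and at 14.3 and 24.3 CPM in endothelial-like cells.

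**Figure D1:**
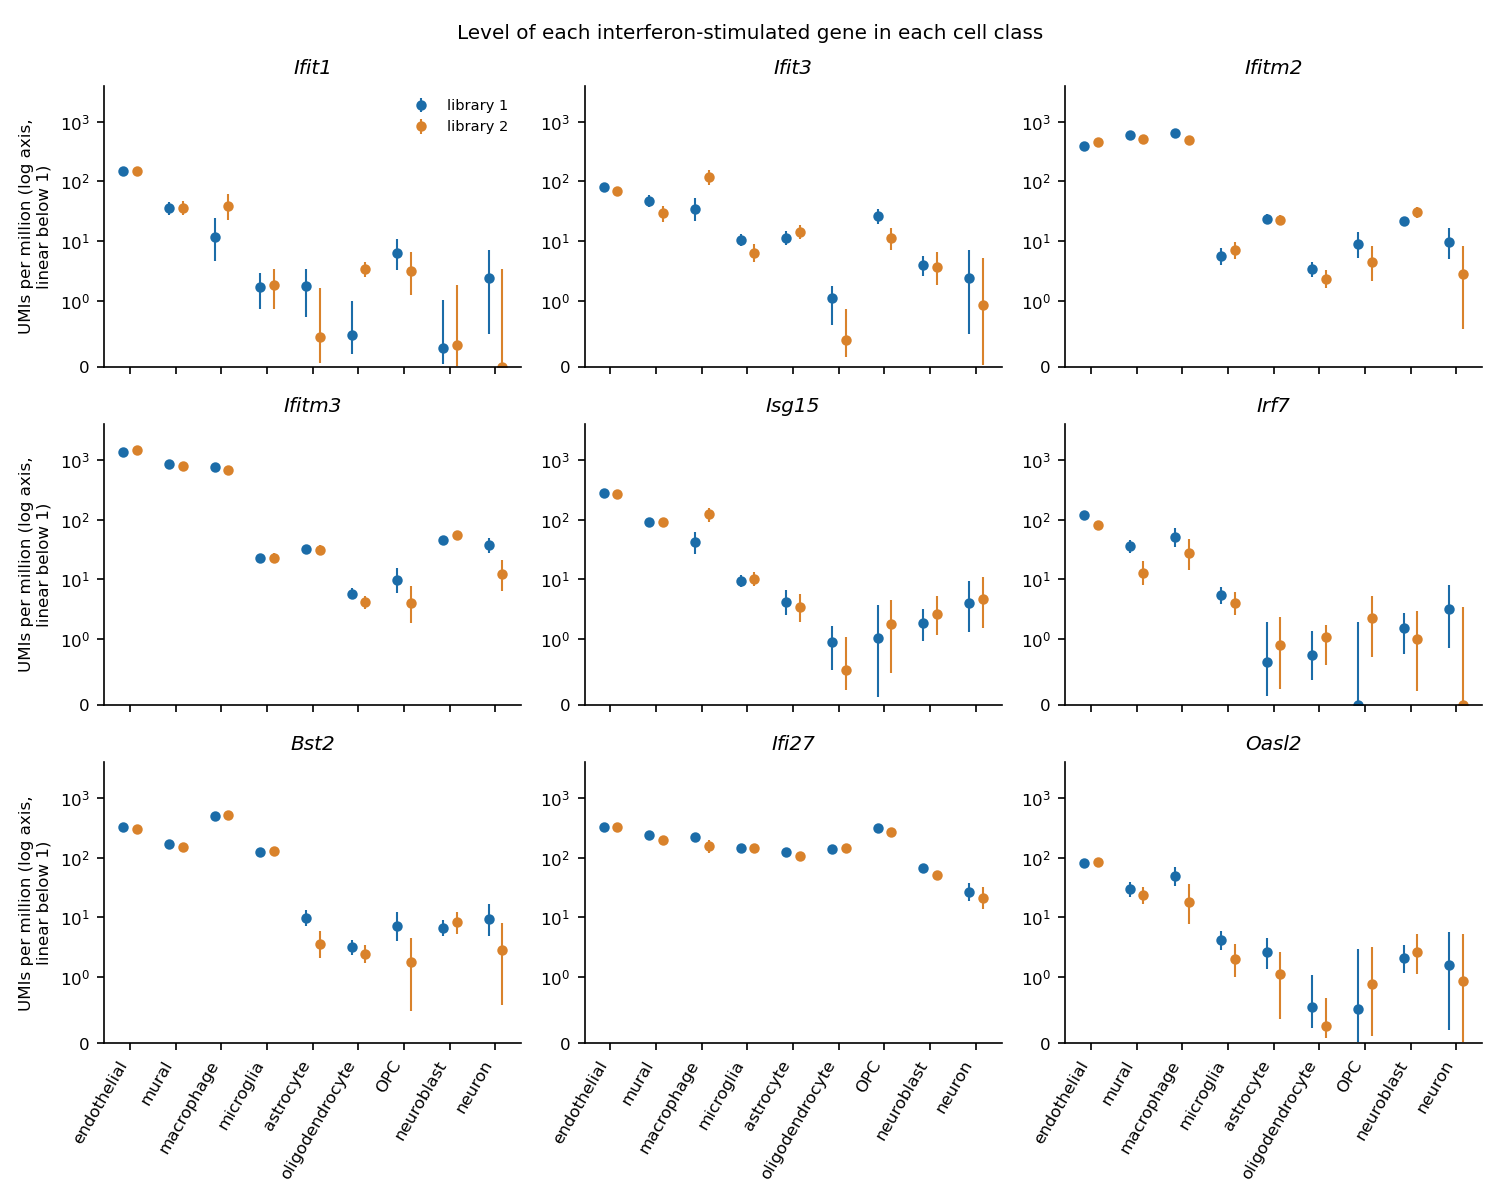
Level of each of the 9 genes in 9 cell classes, in CPM on a log axis that is linear below 1, with a point per library and exact Poisson 95% intervals. *Irf7*, *Ifit1*, *Isg15*, *Oasl2* and *Ifitm3* are highest in endothelial-like cells in both libraries, *Bst2* is highest in macrophage-like cells, and *Ifi27* is at 21.4 CPM or more in every class.

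Because the classes differ in depth, shares of cells were compared after thinning each cell to 1000 UMIs, which kept 5688 of 6707 and 4728 of 5198 cells of the named classes. *Ifitm3* was then found in 60.6% and 69.1% of endothelial-like cells and *Ifitm2* in 28.2% and 35.7%. *Bst2* was found in 28.0% and 25.4%, *Ifi27* in 23.9% and 25.8% and *Isg15* in 17.3% (exact binomial 95% interval 14.4–20.5%) and 20.0% (16.5–23.8%). *Ifit1* followed with 11.2% and 11.8%, *Irf7* with 9.72% and 7.42%, *Oasl2* with 7.74% and 8.66% and *Ifit3* with 5.93% and 5.77%. Without thinning the shares ran from 13.4% and 15.5% for *Ifit3* to 68.5% and 82.0% for *Ifitm3*. *Isg15* was found in 0 of 1152 thinned oligodendrocyte-like cells of library 1, which allows a share of cells with a UMI at this depth of up to 0.26%, and in 1 of 1165 in library 2. Without thinning it was in 32.6% and 37.7% of endothelial-like cells, whose median depth was 2672 and 3255.5 UMIs, against 1.01% and 0.679% of oligodendrocyte-like cells at 11496 and 12140 UMIs.

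In thinned microglia-like cells *Bst2* was found in 11.5% and 13.1% and *Ifi27* in 14.6% and 12.5%, while the 7 other genes were each found in at most 2.16%. In OPC-like cells *Ifi27* was found in 30.2% and 23.1%, and each of the other genes in at most 1.39%. Astrocyte-like cells had *Ifi27* in 11.4% and 10.3%, *Ifitm3* in 3.58% and 2.82% and *Ifitm2* in 2.92% and 2.06%. In *Ifi27* OPC-like cells were thus above endothelial-like cells in library 1, at 30.2% against 23.9%, and below them in library 2, at 23.1% against 25.8%. The binomial intervals of these 2 classes overlapped in both libraries. The other glial classes reached 14.6% at most. In *Isg15*, *Irf7* and *Oasl2* no glial class reached 1% in either library.

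**Figure D2:**
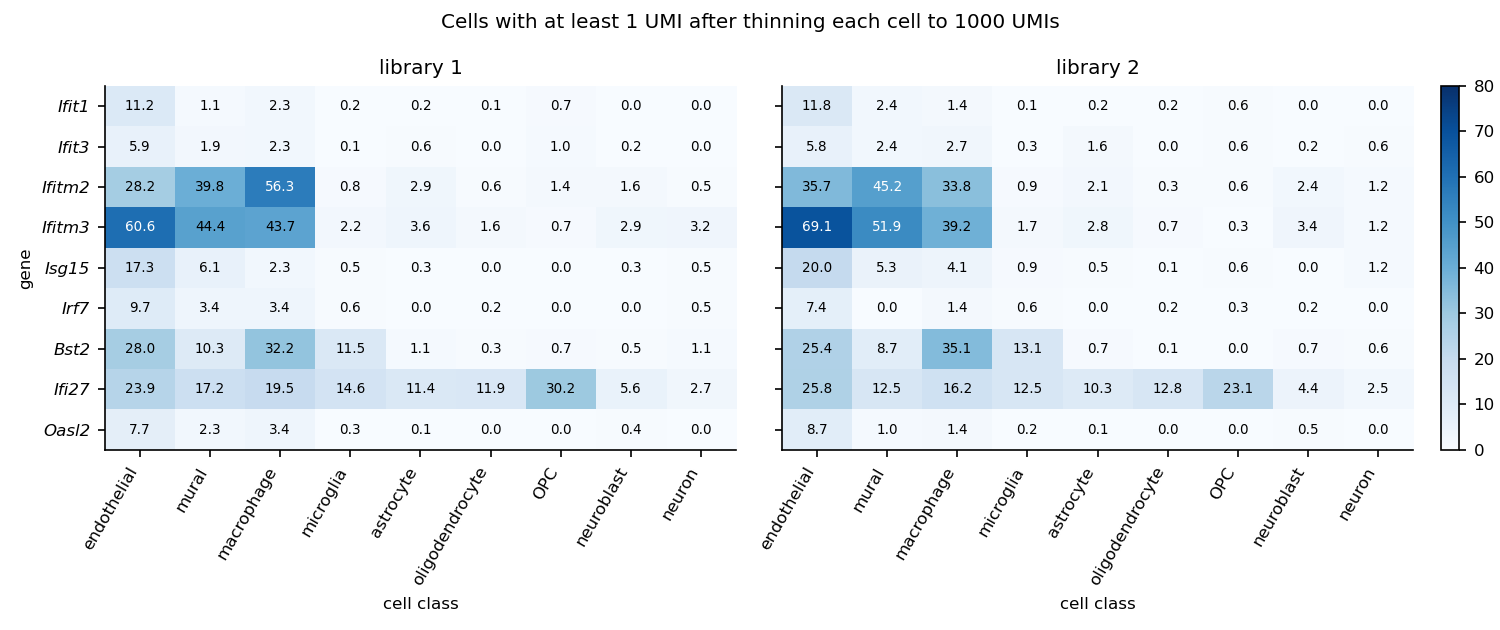
Percent of cells with at least 1 UMI of each gene (rows) in each class (columns) after thinning every cell to 1000 UMIs, with a panel for each library. The endothelial-, mural- and macrophage-like columns are the darkest, from 39.2% to 69.1% for *Ifitm3*, and *Ifi27* is the only row with values above 10% in the astrocyte-, oligodendrocyte- and OPC-like columns.

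Free RNA in the suspension gives UMIs in cells that do not make a gene, and RNA from 1 source keeps its genes in a fixed ratio. UMIs of each gene were therefore set against the UMIs of the 8 endothelial markers in the same class. For *Ifitm3* this ratio was 7.01 and 6.03 per 100 marker UMIs in endothelial-like cells. It was 9.22 and 9.35 in neuron-like, 7.02 and 14 in oligodendrocyte-like and 9.18 and 4.66 in OPC-like cells, the highest of these being oligodendrocyte-like cells of library 2. It was higher still at 20.7 and 61.5 in astrocyte-like, at 35.3 and 34.3 in microglia-like and at 65.8 and 53.5 in neuroblast-like cells. For *Bst2* the ratio was 1.68 and 1.25 in endothelial-like cells, 2.35 and 2.16 in neuron-like cells and 195 and 199 in microglia-like cells. For *Ifi27* it was 1.67 and 1.34 in endothelial-like, 290 and 323 in OPC-like and 174 and 498 in oligodendrocyte-like cells. Of the 47 *Ifitm3* UMIs of neuron-like cells in library 1, 1 cell held 20 and the next 13. In neuroblast-like cells of library 1, 1 cell held 77 of the 329 *Ifitm3* UMIs and the next 45. In those of library 2, 1 cell held 47 of 167 and the next 29. Whether the UMIs of all these classes came from free RNA, from doublets or from the cells themselves was not tested.

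The vessel lining was then compared with the astrocytes, the glia the study is about. All 9 genes were higher in endothelial-like than in astrocyte-like cells, where 30.9% of the 15305 genes tested were higher and 27.0% were lower. The log2 fold change was 6.65 (SE 0.54) for *Ifit1*, with adjusted p = 5.6e-09, and 6.38 (SE 0.46) for *Irf7*, with adjusted p = 1.1e-09. *Irf7* rests on 3 and 4 UMIs in astrocyte-like cells and *Ifit1* on 8 and 2. *Isg15* differed by 6.13 (SE 0.30), *Ifitm3* and *Bst2* by 5.58 each, *Oasl2* by 5.26 and *Ifitm2* by 4.28. *Ifit3* differed by 2.61 (SE 0.37, adjusted p = 8.7e-06) and *Ifi27* by 1.61 (SE 0.15, adjusted p = 5.5e-08). The median over the 9 genes was 5.58, beside 0.02 over all genes tested.

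Microglia-like cells were compared with astrocyte-like cells as the resident immune cells. Here 5 of the 9 genes were higher and 1 was lower, where 35.5% of all genes were higher and 29.0% lower. *Bst2* had the largest difference of the 9, a log2 fold change of 4.61 (SE 0.29, adjusted p = 3.7e-10). *Irf7* was higher by 2.42 (SE 0.64), *Isg15* by 1.68 (SE 0.35), *Oasl2* by 1.01 (SE 0.46) and *Ifi27* by 0.80 (SE 0.14). *Irf7* rests on 39 and 22 UMIs in microglia-like and 3 and 4 in astrocyte-like cells. *Isg15* rests on 67 and 55 against 19 and 15, and *Oasl2* on 30 and 11 against 12 and 5. Of the *Oasl2* UMIs of library 1, 1 microglia-like cell held 8 and the next 6, and 1 astrocyte-like cell held 6 and the next 3. *Ifitm2* fell by 1.38 on the log2 scale (SE 0.28, adjusted p = 2.6e-04). *Ifit1* had a log2 fold change of 0.84 (SE 0.92), *Ifit3* of -0.14 (SE 0.42) and *Ifitm3* of -0.04 (SE 0.25), none past the threshold. The median was 0.84 over the 9 genes and 0.04 over all genes. With each cell thinned to 1000 UMIs, 3 genes were called higher.

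Set directly against microglia-like cells, endothelial-like cells had all 9 genes higher, where 21.1% of all genes were higher and 25.1% lower. *Ifit1* differed by 5.82 (SE 0.48, adjusted p = 9.2e-09), *Ifitm2* by 5.66, *Ifitm3* by 5.63, *Isg15* by 4.45, *Oasl2* by 4.25 and *Irf7* by 3.96. The smallest differences were those of *Bst2*, at 0.97 (SE 0.22, adjusted p = 0.00137), and *Ifi27*, at 0.82 (SE 0.14, adjusted p = 1.3e-04). The median was 4.25 over the 9 genes and -0.04 over all genes. These comparisons share their endothelial-like and astrocyte-like sums and are not independent of each other.

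Between the myeloid classes, 8 of the 9 genes were higher in macrophage-like than in microglia-like cells and none was lower, where 6.51% of all genes were higher and 13.1% lower. *Ifitm2* differed by 6.23 (SE 0.28, adjusted p = 1.1e-10), *Ifitm3* by 4.76 (SE 0.26) and *Bst2* by 1.78 (SE 0.23, adjusted p = 3.0e-05). *Ifit1* differed by 3.26 (SE 0.82, adjusted p = 0.00546), a call that was lost without the cell with the most UMIs in each class and library, *Oasl2* by 3.12, *Ifit3* by 2.83, *Irf7* by 2.76 and *Isg15* by 2.73. *Ifi27* had a log2 fold change of 0.16 (SE 0.16, adjusted p = 0.583). The median was 2.83 over the 9 genes and -0.27 over all genes. With each cell thinned to 1000 UMIs, 5 genes were called higher. Without the 3 and 18 macrophage-like cells that held a lymphocyte or granulocyte marker UMI, 8 genes were called as before, with *Ifitm2* at 628 and 620 CPM and *Bst2* at 519 and 623 CPM.

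In the vessel wall, 8 of the 9 genes were lower in mural-like than in endothelial-like cells, where 12.2% of all genes were higher and 14.8% lower. *Ifit1* fell by 2.19 (SE 0.37), *Irf7* by 2.15 (SE 0.32), *Oasl2* by 1.77, *Isg15* by 1.71, *Bst2* by 1.11 and *Ifit3* by 1.09 (SE 0.36, adjusted p = 0.0310). *Ifitm3* fell by 0.92 and *Ifi27* by 0.69, and *Ifitm2* had a log2 fold change of 0.29 (SE 0.20, adjusted p = 0.338). The median was -1.11 over the 9 genes and -0.14 over all genes.

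Between the macroglia, 5 of the 9 genes were lower in oligodendrocyte-like than in astrocyte-like cells and 1 was higher, where 34.1% of all genes were higher and 27.0% lower. *Ifit3* fell by 3.11 (SE 0.53), *Ifitm2* by 2.41 (SE 0.28), *Ifitm3* by 2.15 (SE 0.27), *Isg15* by 1.47 (SE 0.48) and *Oasl2* by 1.14 (SE 0.59, adjusted p = 0.0190). The last 2 calls rest on few UMIs. *Oasl2* had 8 and 4 in oligodendrocyte-like and 12 and 5 in astrocyte-like cells, and *Isg15* 14 and 8 against 19 and 15. Single oligodendrocyte-like cells held 5 of the 8 and 4 of the 4 *Oasl2* UMIs. Single astrocyte-like cells held 6 of the 12 *Oasl2* UMIs of library 1 and 8 of the 15 *Isg15* UMIs of library 2. *Ifi27* was higher by 0.79 (SE 0.14, adjusted p = 1.3e-04), a call that was lost with library sizes alone in place of TMM factors and with at least 500 detected genes per cell. In the finer oligodendrocyte-like cluster led by *Ermn* it stood at 115 and 128 CPM, beside 125 and 107 CPM in astrocyte-like cells. How much the unnamed finer cluster within the oligodendrocyte-like class added to the difference was not tested. *Bst2*, *Irf7* and *Ifit1* had log2 fold changes of -0.72, 0.47 and 0.93, none past the threshold. The median was -1.14 over the 9 genes and 0.07 over all genes.

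**Figure D3:**
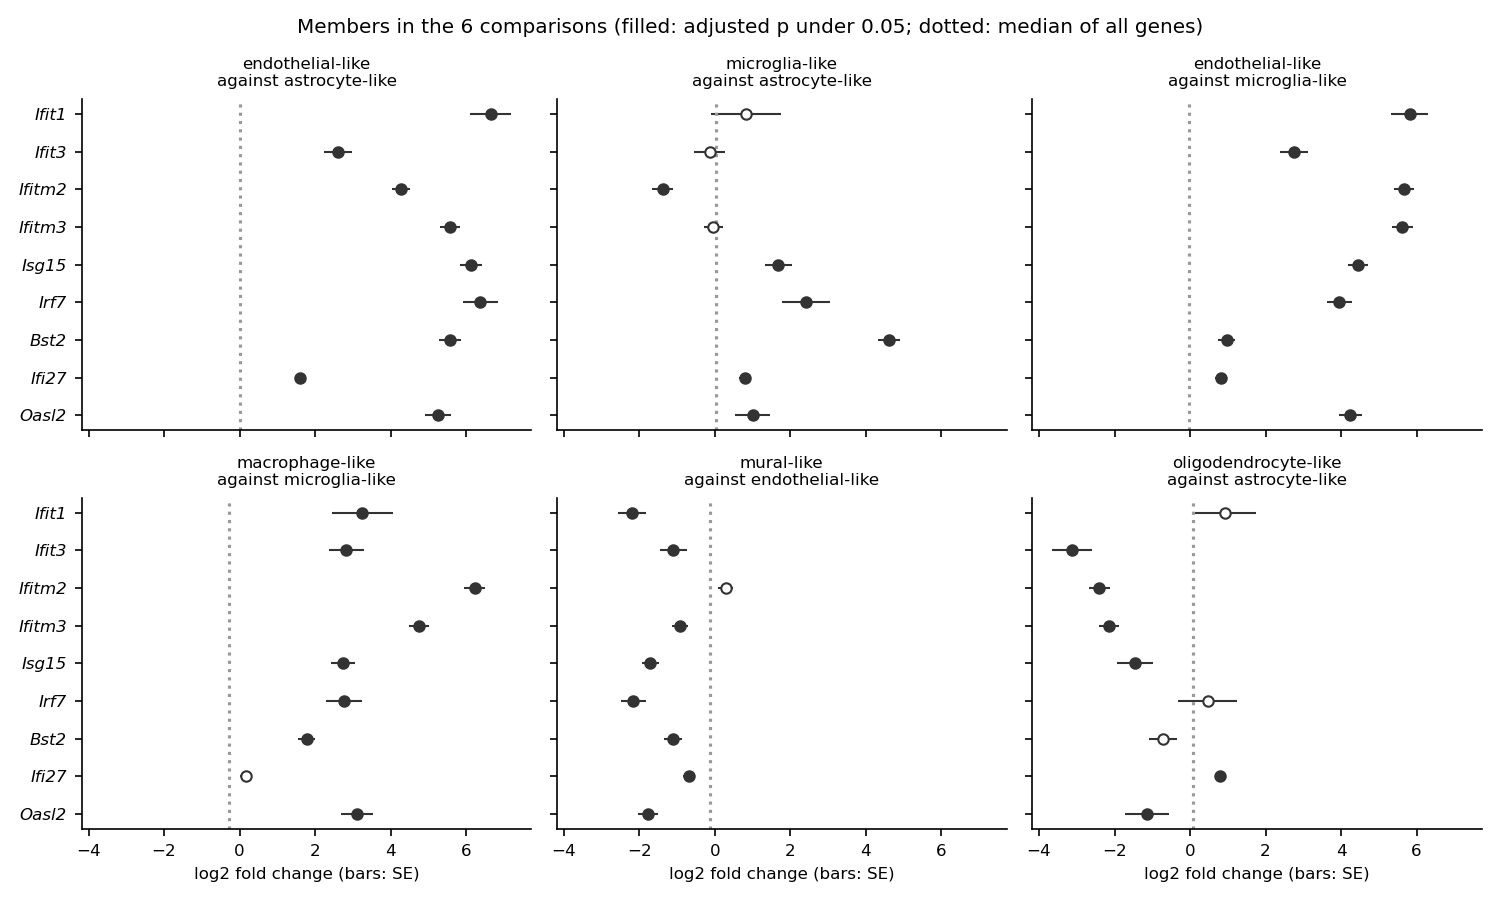
Log2 fold change of each of the 9 genes in the 6 comparisons of classes, with bars of 1 standard error; filled points had an adjusted p under 0.05 in edgeR, and the dotted line is the median of all 15305 genes. All 9 points are filled and lie right of 0 for endothelial-like against astrocyte-like and against microglia-like cells, and 8 lie left of 0 and are filled for mural-like against endothelial-like cells.

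The mural-like class was not uniform. At the finer clustering resolution of 0.32, 28 of its 308 cells in library 1 and 35 of its 240 cells in library 2 formed a cluster that also raised 8 of 8 endothelial markers, with 3555 CPM of the tight junction gene *Cldn5* in library 1 against 87.8 CPM in the other mural-like cells and 5294 CPM in endothelial-like cells. These 63 cells had a median of 15307 UMIs. *Ifit1* stood at 107 and 105 CPM in them and at 7.64 and 0 CPM in the other mural-like cells. *Isg15* stood at 255 and 216 CPM against 29.0 and 26.4 CPM, and *Irf7* at 103 and 31.9 CPM against 9.16 and 2.94 CPM. *Ifitm2* went the other way, at 552 and 463 CPM against 612 and 557 CPM. Much of the mural-like level of *Ifit1*, *Isg15* and *Irf7* was thus counted in cells that also carried endothelial RNA, and whether these are doublets was not tested.

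Without those cells 8 genes were again lower in mural-like than in endothelial-like cells, by larger differences. *Ifit1* fell by 5.07, *Irf7* by 3.98, *Isg15* by 3.38, *Oasl2* by 3.23 and *Ifit3* by 2.04, while *Bst2* fell by 1.56, *Ifitm3* by 1.22 and *Ifi27* by 0.89. *Ifitm2* had a log2 fold change of 0.39 and again did not pass. Of the remaining mural-like cells, 1 finer cluster led by *Vtn*, *Kcnj8* and *Abcc9*, genes of pericytes, had *Ifitm2* at 777 and 747 CPM and *Isg15* at 24.1 and 14.5 CPM. Another, led by *Acta2*, *Tagln* and *Myh11*, contractile genes of smooth muscle, had *Ifitm2* at 483 and 410 CPM and *Isg15* at 31.7 and 36 CPM. *Ifitm3* stood at 689 and 932 CPM in the former and at 410 and 453 CPM in the latter. The fibroblast-like finer cluster, led by *Dcn*, held 35 and 19 cells, with *Ifit3* at 89.4 and 102 CPM, *Ifitm3* at 1570 and 577 CPM, *Ifitm2* at 609 and 696 CPM and 8 and 0 UMIs of *Ifit1*. The pericyte and smooth muscle clusters carried *Ifitm2* and *Ifitm3*, while *Ifit1* was counted with 1 and 0 UMIs in each of them and *Irf7* with 5 and 1 UMIs in the former and 2 and 1 in the latter.

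**Figure D4:**
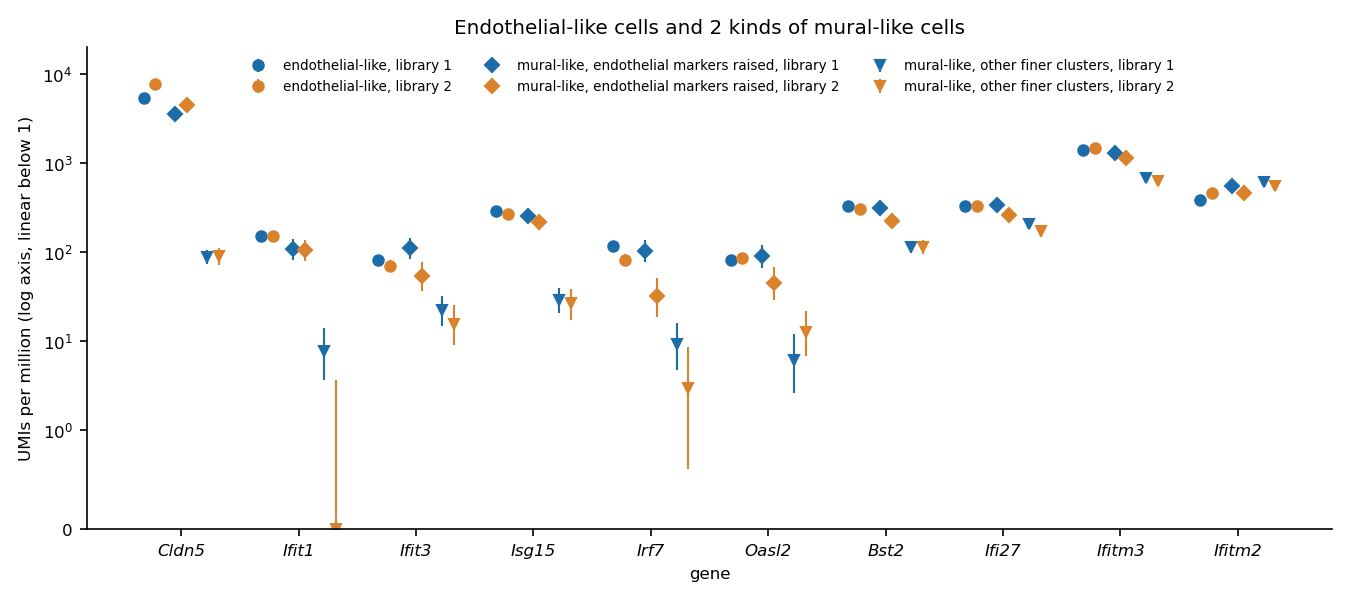
Level of the 9 genes in endothelial-like cells, in the mural-like cells of the finer cluster that raised endothelial markers and in the other mural-like cells, in CPM on a log axis that is linear below 1, with a point per library and exact Poisson 95% intervals. *Ifit1* drops from 107 and 105 CPM in the former mural-like cells to 7.64 and 0 CPM in the latter, while *Ifitm2* is at 552 and 463 CPM against 612 and 557 CPM.

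Within endothelial-like cells the UMIs were spread over many cells. The cell with the most *Ifit1* UMIs held 3.62% and 2.67% of them, and the cell with the most *Isg15* UMIs held 3.84% and 2.56%. Thinning to 2000 UMIs left out every cell of lower depth and kept 4331 of 6707 and 3933 of 5198 cells of the named classes. A finer endothelial-like cluster of 541 cells had a median of 901 UMIs, so most of it was left out. Of the endothelial-like cells kept, 56.2% and 56.3% had at least 1 of *Ifit1*, *Ifit3*, *Isg15*, *Irf7* and *Oasl2*. At least 2 of the 5 were found in 25.3% and 28.7%, and at least 3 in 10.6% and 10.1%. Of the endothelial-like cells with an *Ifit3* UMI, 61.2% and 56.5% also had *Isg15*, against 29.1% and 31.9% of those without it. For *Ifit1* these shares were 38.8% and 50% against 17.3% and 19.4%, for *Irf7* 36.7% and 26.1% against 15.8% and 13%, and for *Oasl2* 28.6% and 30.4% against 13.6% and 15.0%. Cells with *Ifit3* numbered 49 and 46 and those without it 405 and 361, of 804 and 600 endothelial-like cells before thinning. The binomial intervals overlapped for *Irf7* in library 2 and for *Oasl2* in both libraries, and the differences were not tested. At 1000 UMIs *Isg15* was found in 47.2% and 25% of the cells with *Ifit3* and in 15.4% and 19.7% of those without, and the intervals of library 2 overlapped. In microglia-like cells 2.67% and 3.44% had at least 1 of the 5 genes and 2 of 863 and 6 of 871 had at least 2. In astrocyte-like cells 2.86% and 1.83% had at least 1, and 2 of 629 and 0 of 601 had at least 2.

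Outside the vessels 1 cell held much of what was counted of some genes in some classes. In library 2, 1 macrophage-like cell of 9252 UMIs held 17 of the 17 *Ifit1* UMIs of its class, 48 of the 52 of *Ifit3*, 43 of the 54 of *Isg15* and 8 of the 12 of *Irf7*. The same cell held 30 UMIs of the chemokine gene *Cxcl10*, 16 of *Ifit2* and 10 of *Usp18*, which encodes a brake on the interferon receptor. It had 120 UMIs of microglia markers and 0 of macrophage markers, against its class. In library 1, 1 microglia-like cell of 12361 UMIs held 38 of the 75 *Ifit3* UMIs of its class and 20 UMIs of *Ifit3b*. Another, of 9045 UMIs, held 10 of the 67 *Isg15*, 6 of the 39 *Irf7* and 8 of the 30 *Oasl2* UMIs. That cell was kept when the cell with the most UMIs was left out. In the same library 1 astrocyte-like cell of 13331 UMIs held 7 of 52 *Ifit3*, 4 of 19 *Isg15* and 6 of 12 *Oasl2* UMIs. In library 2, 1 oligodendrocyte-like cell of 32167 UMIs held 44 of the 50 *Ifit1* UMIs of its class, beside 2909 UMIs of oligodendrocyte markers. It also held 4 of the 4 *Oasl2* UMIs of its class, 6 of the 16 of *Irf7*, 10 of the 37 of *Bst2* and 2 of the 6 of *Ifit3*. It had 6 UMIs of *Usp18* and 0 of *Isg15*. These cells were found by their counts and are described, not tested.

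Leaving out the cell with the most UMIs of the 5 genes in each class and library bore most on the macrophage-like class, the smallest. There *Ifit1* stood at 11.9 and 0 CPM, *Ifit3* at 32.3 and 9.27 CPM, *Isg15* at 39.1 and 25.5 CPM, *Irf7* at 37.4 and 9.27 CPM and *Oasl2* at 45.9 and 9.27 CPM. *Bst2* moved little, to 492 and 489 CPM, as did *Ifitm3*, to 737 and 651 CPM, and *Ifitm2*, to 665 and 503 CPM. Against microglia-like cells the log2 fold change of *Ifit1* became 2.13 and did not pass, while *Ifit3* at 1.82, *Isg15* at 1.63, *Irf7* at 2.12 and *Oasl2* at 3.04 passed. *Ifit3* in microglia-like cells stood at 5.21 and 4.94 CPM without the cell and *Ifit1* in oligodendrocyte-like cells at 0.41 and 0.40 CPM.

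**Figure D5:**
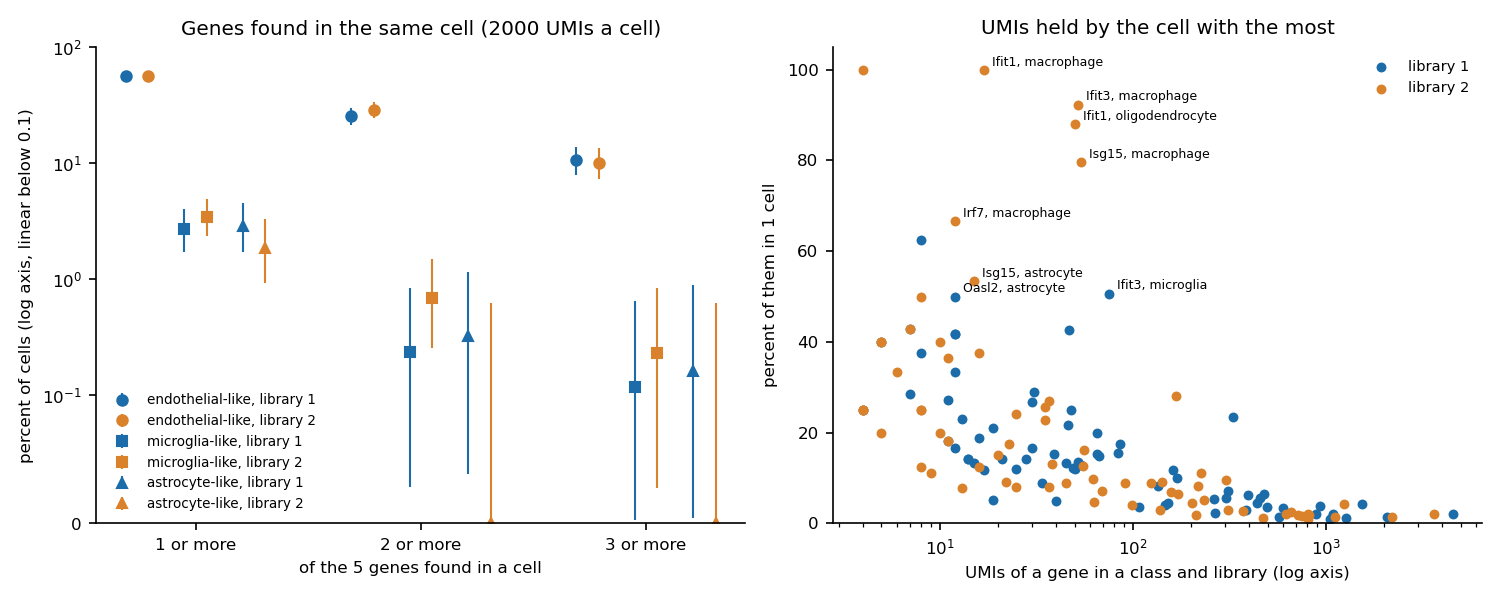
Left, percent of cells thinned to 2000 UMIs with at least 1, 2 or 3 of *Ifit1*, *Ifit3*, *Isg15*, *Irf7* and *Oasl2* in endothelial-, microglia- and astrocyte-like cells of each library, on a log axis that is linear below 0.1, with exact binomial 95% intervals. Right, the percent of the UMIs of a gene in a class and library that 1 cell held, against the number of these UMIs on a log axis. Endothelial-like cells reach 25.3% and 28.7% with at least 2 genes, and 1 macrophage-like cell of library 2 held 17 of 17 *Ifit1* UMIs.

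The rest of the pathway was read from the same fit, and its counts stand beside the shares of all genes given for each comparison, 30.9% higher and 27.0% lower for endothelial-like against astrocyte-like cells. Of 10 interferon genes, *Ifnb1* and *Ifna1* among them, 8 had no UMI in any named class, and none had enough counts to be tested. Of the 5 receptor subunits tested, 4 were higher in endothelial-like than in astrocyte-like cells and 5 of 5 in microglia-like than in astrocyte-like cells. *Ifnar1* was at 191 and 221 CPM in endothelial-like, 41.8 and 50.2 CPM in microglia-like and 31.9 and 44.6 CPM in astrocyte-like cells, with log2 fold changes of 2.53 over astrocyte-like and 1.82 over microglia-like cells. *Ifnar2* was at 292 and 395 CPM in endothelial-like, 259 and 319 CPM in microglia-like and 71.7 and 76.2 CPM in astrocyte-like cells. The log2 fold change over microglia-like cells was -0.09 and did not pass. It includes the TMM factors, while the levels, higher in endothelial-like cells in both libraries, do not.

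The receptor of interferon gamma had another place. *Ifngr1* was at 843 and 906 CPM in microglia-like, 94.3 and 97.6 CPM in endothelial-like and 78.2 and 72.6 CPM in astrocyte-like cells. It fell by 3.52 and *Ifngr2* by 2.40 on the log2 scale from microglia-like to endothelial-like cells. Over astrocyte-like cells microglia-like cells had *Ifngr1* higher by 3.98 and *Ifngr2* by 2.81, while endothelial-like cells had *Ifngr1* higher by 0.46 and *Ifngr2* at 0.41, which did not pass. *Il10rb*, shared by the receptors of interferon lambda and interleukin 10, was higher in endothelial-like than in astrocyte-like cells by 4.17 and had a log2 fold change of 0.54 over microglia-like cells that did not pass. *Ifnlr1*, the other subunit for interferon lambda, had too few counts to be tested. In macrophage-like against microglia-like cells *Ifnar1* was higher by 1.08 and *Il10rb* by 1.09, and *Ifngr1* fell by 1.17 and *Ifngr2* by 0.63. In mural-like against endothelial-like cells *Ifnar1* fell by 1.81, *Ifnar2* by 1.00 and *Il10rb* by 1.71. In oligodendrocyte-like against astrocyte-like cells *Ifnar1* fell by 0.38, *Ifngr1* by 0.91, *Ifngr2* by 0.75 and *Il10rb* by 1.67.

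Several sensors of foreign nucleic acid had their highest level in microglia-like cells. Of 10 sensors tested, 6 were higher and 1 was lower in endothelial-like than in astrocyte-like cells, 9 were higher in microglia-like than in astrocyte-like cells, where 35.5% of all genes were, and 3 were higher and 6 lower in endothelial-like than in microglia-like cells. *Tlr7*, a sensor of single-stranded RNA, was at 187 and 134 CPM in microglia-like and at 0.91 and 1.62 CPM in endothelial-like cells, a log2 fold change of -6.93 (SE 0.32). *Tmem173*, which encodes STING, was at 198 and 290 CPM in microglia-like and 4.56 and 6.48 CPM in endothelial-like cells and fell by 5.67. *Tlr3*, a sensor of double-stranded RNA, was higher in astrocyte-like cells, at 97.4 and 152 CPM against 22.2 and 24.7 CPM in endothelial-like cells, and fell by 5.81 from astrocyte-like to oligodendrocyte-like cells. Of the sensors, 1 was higher and 4 were lower in macrophage-like than in microglia-like cells, *Tlr3* falling by 2.06, *Tmem173* by 1.99 and *Mavs*, an adaptor of RNA sensors, by 1.46. In mural-like against endothelial-like cells 3 were lower and in oligodendrocyte-like against astrocyte-like cells 5 were lower, where 27.0% of all genes were, and none was higher in either.

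Of the 5 other interferon regulatory factors, 4 were higher in microglia-like and 3 in endothelial-like than in astrocyte-like cells. *Irf8*, a factor of the myeloid lineage, was at 395 and 425 CPM in microglia-like and 5.48 and 4.05 CPM in endothelial-like cells, a log2 fold change of -6.61 from the former to the latter, and *Irf5* was higher in microglia-like than in astrocyte-like cells by 6.76. From microglia-like to endothelial-like cells 1 was higher and 3 were lower, in macrophage-like against microglia-like cells 3 were lower, in mural-like against endothelial-like cells 3 were lower, and in oligodendrocyte-like against astrocyte-like cells 1 was lower. *Irf7* thus stood highest in endothelial-like cells while *Irf8* stood highest in microglia-like cells. Of the 4 negative regulators, 3 were higher in endothelial-like than in astrocyte-like cells, where 30.9% of all genes were, 3 in microglia-like than in astrocyte-like cells and 3 in endothelial-like than in microglia-like cells, with none lower. In macrophage-like against microglia-like cells 1 was higher, in mural-like against endothelial-like cells 2 were lower, and in oligodendrocyte-like against astrocyte-like cells 1 was lower. *Usp18* was at 59.0 and 42.9 CPM in endothelial-like and 2.53 and 2.74 CPM in microglia-like cells.

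Of 36 other interferon-stimulated genes tested, 34 were higher in endothelial-like than in astrocyte-like cells and none was lower, with a median log2 fold change of 4.01. The largest were *Sp100* at 6.96, which encodes a protein of nuclear bodies, *Ly6e* at 6.30, which encodes a surface protein, and *Ifi47*, which encodes a GTPase and had 118 and 109 UMIs in endothelial-like against 0 and 1 in astrocyte-like cells. Against microglia-like cells 22 were higher and 5 lower in endothelial-like cells, with a median of 0.98. *Ifi44*, with 149 and 104 UMIs against 1 and 0, *Rsad2*, which encodes viperin, at 6.09 and *Ifi47* at 4.85 differed most. *Rsad2* was at 104 and 82.6 CPM in endothelial-like and at 0.56 and 0.91 CPM in microglia-like cells. In microglia-like against astrocyte-like cells 27 were higher and 2 lower, with a median of 2.11, and the 2 were *Cmpk2*, which fell by 1.53, and *Ifit3b*, which fell by 1.51.

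In macrophage-like against microglia-like cells 15 of the 36 were higher and none lower, with a median of 0.65. *Oas2*, an oligoadenylate synthetase, had 21 and 10 UMIs against 1 and 0 in microglia-like cells, and *Ifi47* differed by 5.41 and *Ifi27l2a* by 4.75. In mural-like against endothelial-like cells 2 were higher and 28 lower, with a median of -1.58. *Ifitm1* was higher by 5.06 and *Ifi204* by 2.64, while *Slfn2* fell by 2.68 and *Rtp4* by 2.37, and *Usp18*, counted with the negative regulators, by 2.49. In oligodendrocyte-like against astrocyte-like cells 3 were higher and 15 lower, with a median of -0.67. The 3 were *Xaf1*, which encodes a protein of cell death, at 3.78, *Ifit2* at 2.07 and *Ifi27l2a* at 1.72, and *Lgals3bp* fell by 4.03 and *Ifit3b* by 3.74. *Xaf1* was at 44.4 and 52.4 CPM in oligodendrocyte-like cells, where *Ifit1*, *Ifit3*, *Isg15*, *Irf7* and *Oasl2* were each at 3.33 CPM or less.

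Across the 18 values of 9 classes in 2 libraries, which share libraries and depth, the pattern of *Isg15* was most like that of *Slfn5* (Pearson r of log2(CPM + 10) 0.99), *Gimap6* (0.98) and *Clec2d* (0.98). *Ifit1* was most like *Ier2* (0.97), *Thbd* (0.96) and *Slfn5* (0.96), *Oasl2* like *Xdh* (0.98), *Slfn5* (0.97) and *Clec2d* (0.96), and *Irf7* like *Xdh* (0.98), *Rtp4* (0.96) and *Ctla2b* (0.95). *Ifit3* was most like *Samd9l* (0.94), *Tnfsf13* (0.93) and *Stom* (0.90). *Ifitm3* was most like *Pltp* (0.98), *Ahnak* (0.97) and *Clec2d* (0.97), *Ifitm2* like *S100a11* (0.95), *Ahnak* (0.95) and *Clec2d* (0.94), and *Bst2* like *Parp14* (0.98), *Smagp* (0.98) and *Ctsh* (0.97). *Ifi27* stood apart, with *Rsu1* (0.95), *Sri* (0.92) and *Bak1* (0.92). Among the 9 genes r ran from 0.42 for *Ifi27* with *Ifitm3* to 0.98 for *Irf7* with *Oasl2* and for *Ifitm2* with *Ifitm3*.

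The libraries differed beyond counting error in 12 of the 81 pairs of gene and class. These were *Ifit3*, *Isg15* and *Ifitm2* in macrophage-like cells, *Ifitm2*, *Ifitm3* and *Irf7* in endothelial-like cells, *Irf7* in mural-like, *Ifit3* in OPC-like, *Ifit1* in oligodendrocyte-like, *Bst2* in astrocyte-like, *Ifi27* in neuroblast-like and *Ifitm3* in neuron-like cells. *Ifit3* and *Isg15* in macrophage-like and *Ifit1* in oligodendrocyte-like cells are those where 1 cell of library 2 held most of the UMIs.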

How the data were processed

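Single-cell RNA was measured in 2 libraries of untreated striatum. The authors deposited raw UMI counts per gene and cell, made with Cell Ranger 4.0 on mm10 per the submitters' processing notes, without normalization, and no column of per-sample values was left unused. Cells with at least 300 detected genes were kept, and 105 and 155 doublets marked by Scrublet (scanpy 1.11.5, expected rate 6%) were removed. Seurat 5.3.0 integrated the libraries on 2000 variable genes and 30 principal components and clustered at resolution 0.08, without the 9 genes, the pathway lists and 97 cell-cycle genes. A cluster was named, as "X-like", where at least 3 markers were raised 2-fold (10 CPM added) and 1 was among its 50 leading genes.

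Counts summed per library and class were fitted in edgeR 4.0.16 (R 4.3.3) with TMM factors, filterByExpr and the library as a block, which follows from both classes of a library sharing a suspension. P-values were adjusted by Benjamini-Hochberg over 15305 genes at 0.05. Fold changes used a prior count of 2, which the SEs leave out. On simulated counts of 14102 genes for endothelial-like against astrocyte-like cells, 45% of genes changed 2-fold and 76% of those changed 4-fold were recovered, with 8 false calls. There all classes shared the same means apart from the changed genes, 100 per fold. The real classes differ in far more genes, so these rates need not hold for them. Depth ran from 1615 to 12140 UMIs per cell in the median of a class, and intervals (95%) cover counting error only. An erythroid-like class of 86 and 11 cells was too small for the fit. The lists were ligands, receptors, other interferon regulatory factors, sensors, negative regulators and other interferon-stimulated genes. A further list, of signal transducers, and some genes the naming rule selects are not reported here. The members and lists were chosen with earlier results of these data known. Named were the 9 genes, every receptor, the 3 called pathway genes with the largest change each way per comparison, near copies, and the 3 genes most like each member with a mean of at least 20 CPM, while cells with many UMIs and finer clusters were chosen after their values were seen. Alternatives were DESeq2 1.42.0, library sizes alone, no block, no filter, resolution 0.32, doublets kept, at least 500 genes, under 20% mitochondrial UMIs, thinning and leaving out each library. Leaving out mural-like cells with endothelial markers, macrophage-like cells with leukocyte markers, or the cell with the most UMIs was added after seeing the data.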

Additional observations from a re-analysis of the deposited data

Results flagged for a closer look

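The erythroid-like cells, 86 in library 1 and 11 in library 2, entered no comparison, and 5 of the 9 genes stood there above the limit that a count of 0 allows, set at 3 counts. In library 1 *Isg15* was at 154 CPM (110 UMIs), *Irf7* at 35.0 CPM (25 UMIs), *Ifitm3* at 32.2 CPM (23 UMIs), *Ifi27* at 19.6 CPM (14 UMIs) and *Ifitm2* at 8.39 CPM (6 UMIs). In library 2 *Isg15* was at 54.4 CPM (4 UMIs). *Isg15* was lower there than in endothelial-like cells, at 285 CPM in library 1, which held 5416 CPM of the 5 erythroid markers. In library 1 the erythroid-like level of *Isg15* was above that of mural-like cells at 92.7 CPM and macrophage-like cells at 41.7 CPM. In library 2 it was below both, at 91.4 and 122 CPM. No test was made on these values.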

How the results depend on the processing

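Of the called log2 fold changes of the 9 genes, recomputed in each tested alternative, 532 values kept direction and call and 20 lost the call, and of those not called 77 were alike, 11 passed and 8 turned sign. For microglia-like against astrocyte-like cells 3 genes were higher after thinning, and for macrophage-like against microglia-like cells 5. For oligodendrocyte-like against astrocyte-like cells the genes higher numbered 0 with library sizes alone and with at least 500 detected genes, 2 with no filter and 3 with doublets kept, where 3 were lower. Between microglia- and astrocyte-like cells *Ifit1* turned to -0.055 on thinning and *Ifitm3* to 0.22 under 20% mitochondrial UMIs, and between macrophage- and microglia-like cells *Ifi27* turned to -0.041 on thinning. Between oligodendrocyte- and astrocyte-like cells *Irf7* turned to -0.22 with at least 500 genes, and *Ifit1* to -0.64 at resolution 0.32, -0.88 with at least 500 genes, -0.70 under 20% mitochondrial UMIs and -0.58 without the cell with the most UMIs. Resolution 0.32, at least 500 genes and under 20% mitochondrial UMIs also changed which cells these classes held. Leaving out a library, no called value changed sign and 23 moved, *Ifit3* between microglia- and astrocyte-like cells ran from -0.69 to 0.35, *Ifi27* between macrophage- and microglia-like cells from -0.16 to 0.39, and *Ifit1* between oligodendrocyte- and astrocyte-like cells from -0.97 to 2.34. Without the replicate block, the counts higher and lower were 9 and 0 for endothelial-like against astrocyte-like, 4 and 1 for microglia-like against astrocyte-like, 9 and 0 for endothelial-like against microglia-like, 8 and 0 for macrophage-like against microglia-like, 0 and 7 for mural-like against endothelial-like and 1 and 5 for oligodendrocyte-like against astrocyte-like cells. At least 2 of 5 genes were found in 12.7% of endothelial-like cells at 1000 UMIs and 32.9% without thinning, and in 1.12% of microglia-like cells without thinning. All 9 shares of cells moved with thinning. The pathway lists were not recomputed under these alternatives. Apart from the single cell, the cause was not tested, and depth limits what can be said of genes with few UMIs in glia.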
